A study of Mus musculus with 20 samples.

Results

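B cells and plasma cells were followed in mouse trachea through 7 genes that mark the lineage: Igj, Pou2af1, Cd79a, Cd79b, Ms4a1, Cr2 and Blk. They were found by name in the probe annotation of the arrays, where 10 of 41174 non-control probes carried 1 of these names. The RNA came from whole tracheas of C57/Bl6 mice labelled as 4 months old, with 5 mice in each of 4 groups. WT uninjured and Myd88KO uninjured mice served as controls, while WT injured and Myd88KO injured mice were given 2% polidocanol, a detergent that strips the airway epithelium, in the trachea and were sampled after 3 days. Myd88KO mice lack the adaptor Myd88 in every cell and not only in the epithelium or in B cells. By the methods they were bred knockout to knockout after back-crossing, and WT mice came from a separate colony, so that genotype and colony cannot be told apart. The study asked how loss of Myd88 changes the resting trachea and its repair after injury.

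Surface immunoglobulin on a B cell signals through the paired proteins Cd79a and Cd79b, with kinases such as Blk acting just downstream, while Ms4a1 (CD20) and the complement receptor Cr2 (CD21 and CD35) modulate that signal at the membrane. Once a B cell becomes a plasma cell, it turns down much of this surface machinery and secretes antibody instead. The J chain, encoded by Igj (now Jchain), joins the units of polymeric IgA and IgM so that epithelial cells can carry them to the airway surface. Pou2af1 encodes a coactivator that binds the octamer factors Oct-1 and Oct-2 on immunoglobulin promoters, and it is active in both B cells and plasma cells. In the airway wall, IgA plasma cells are best known for gathering around the submucosal glands.

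Each array held 1 mouse's RNA, labelled in a single colour, and levels are given as log2 of the intensity relative to that array's own 75th percentile, so that a difference of 1 is a doubling. Between 57.5% and 67.8% of probes were well above background on an array, and 26063 probes that were so on at least 10 of 20 arrays were tested. Every group had 1 array on each of 5 slides. The 8 airway epithelium markers examined were above background on all 20 arrays. Replicate 5 of Myd88KO injured stood apart in its summed airway epithelium level. The sum takes the 7 genes with a value on every array, which leaves out Scgb1a1, as intensity relative to the 75th percentile. Its level of 1352 was close to the uninjured Myd88KO median of 1358 (956 to 1537). The other 4 injured Myd88KO arrays lay between 747 and 975, 2 of them inside the uninjured range. The Myd88 probe itself was above background on all 20 arrays, and its log2 level was 1.97 ± 0.13 (SD, n = 5) in WT uninjured and 1.75 ± 0.18 (n = 5) in Myd88KO uninjured (adjusted p = 0.999), and 2.53 ± 0.18 (n = 5) in WT injured and 1.77 ± 0.26 (n = 5) in Myd88KO injured, a difference of -0.76 that was called (adjusted p = 0.00838). Whether the sequence it reads was removed in the knockout is not given in the sources used here, so that it does not check the genotype.

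The upstream sequences of Igj and Pou2af1, the members that changed, are shown first because Pou2af1 acts through the octamer element of B cell promoters. RefSeq promoter sequences were given for 4 of the 7 members (Igj as Jchain, Pou2af1, Cd79a and Cr2). Those below are the 250 bases before the annotated start in GRCm38.p6, written 5′ to 3′ on the gene's strand, and capitals mark TGCAAAT, which is 7 letters of the octamer.
Igj (Jchain), chr5:88527898-88528147, minus strand: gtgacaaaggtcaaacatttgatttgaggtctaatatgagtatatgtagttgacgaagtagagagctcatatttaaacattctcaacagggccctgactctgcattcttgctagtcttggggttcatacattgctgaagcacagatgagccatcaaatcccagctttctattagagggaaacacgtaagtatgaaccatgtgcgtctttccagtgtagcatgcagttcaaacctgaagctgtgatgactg
Pou2af1, chr9:51213440-51213689, plus strand: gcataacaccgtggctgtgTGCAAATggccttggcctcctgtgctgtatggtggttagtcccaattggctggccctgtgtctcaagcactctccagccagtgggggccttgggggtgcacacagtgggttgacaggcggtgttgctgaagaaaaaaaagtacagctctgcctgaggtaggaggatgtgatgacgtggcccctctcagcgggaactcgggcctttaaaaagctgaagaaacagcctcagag
TGCAAAT was searched on both strands. It occurred once upstream of Pou2af1, from 231 to 225 bases before the start on the gene's strand, and not upstream of Igj, Cd79a or Cr2. Of 32851 promoters in the same table, 3.56% held it in the same window. The E2A type E-box CAGGTG was found once in each of Cd79a and Cr2 (17.2% of all promoters), and GAGGAA, the core bound by PU.1, once in Cd79a (23.3%). Longer motifs of EBF (0.779% of promoters) and NF-kB (0.356%) matched none of the 4. These matches describe letters in a window and say nothing on binding.

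Igj was the most variable member. It was read by a pair of probes on chromosome 5 of the array annotation, whose genome build is not stated in the files: probe 1 from 88461523 to 88461582 and probe 2 from 88461353 to 88461412, both on the minus strand. Probe 2 was above background on all 20 arrays. Its log2 levels in WT uninjured were 3.60, 1.46, -1.05, 4.27 and -0.33 for replicates 1 to 5. In WT injured they were -3.37, -3.56, -3.63, -0.87 and -2.08. In Myd88KO uninjured they were -2.87, -1.38, -0.91, -2.57 and -2.20, and in Myd88KO injured 0.63, -0.96, -2.42, -1.80 and -0.30. WT uninjured was thus both the highest and the most spread group, with replicates 1 and 4 far above the rest. The other 3 groups lay between -3.63 and 0.63, and replicate 3 was the single WT uninjured array within the range of WT injured.

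After injury in WT, Igj fell by 4.29 on the log2 scale at probe 2 (SE 0.87, 95% interval -6.11 to -2.47, adjusted p = 0.00360), which is 19.6-fold. In bulk tissue, fewer cells of a type and less RNA per cell cannot be told apart. At probe 1 it fell by 4.60 (SE 0.85, adjusted p = 0.00200). The probe 1 levels were 1.63, -0.43, -2.71, 2.34 and -2.44 in WT uninjured and -5.99, -5.81, -5.53, -2.81 and -4.46 in WT injured. All 5 injured arrays were below all 5 uninjured ones at this probe, with replicate 4 of WT injured just under replicate 3 of WT uninjured. Of those injured arrays, 2 of 5 (replicates 4 and 5) were above background, so that no fold is given for this probe. The difference was negative on 5 of 5 slides for both probes, from -7.62 to -2.01 at probe 1, and it was -4.45 on the first scan day (3 arrays a group) and -4.82 on the second (2 arrays a group). Fitted on the WT arrays alone, the adjusted p was 0.0120 at probe 1, 0.0165 at probe 2 and 0.0117 for Pou2af1, so that none of the 3 was called in that fit. Leaving out 1 array at a time moved the difference between -4.95 (without replicate 3 of WT uninjured) and -3.62 (without replicate 4 of WT uninjured) at probe 2, and between -5.19 and -3.93 at probe 1 without the same arrays. It kept probe 1 under the threshold of 0.01 (adjusted p from 0.00111 to 0.00727). At probe 2 the adjusted p rose above it, to 0.0114 without replicate 1 and 0.0119 without replicate 4 of WT uninjured and to between 0.0101 and 0.0115 without replicate 1, 2 or 3 of WT injured.

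Pou2af1 (chromosome 9, 51218585 to 51218644, plus strand) followed with a smaller range. It was above background on all 20 arrays. In WT uninjured its log2 levels were -0.33, -1.37, -1.61, -0.55 and -1.46, again highest in replicates 1 and 4. In WT injured they were -2.62, -2.33, -2.47, -1.996 and -2.02. Every injured WT array was below every uninjured one. The fall was 1.22 on the log2 scale (SE 0.28, 95% interval -1.80 to -0.65, adjusted p = 0.00677), a 2.34-fold change. This call is close to the threshold and was lost without any 1 of 7 arrays, replicates 1, 2 or 4 of WT uninjured and 1, 2, 3 or 5 of WT injured (adjusted p from 0.0106 to 0.0241). In Myd88KO uninjured the levels were -1.79, -2.16, -2.30, -2.24 and -2.17, and in Myd88KO injured -2.04, -1.26, -2.60, -1.29 and -2.34.

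**Figure D1:**
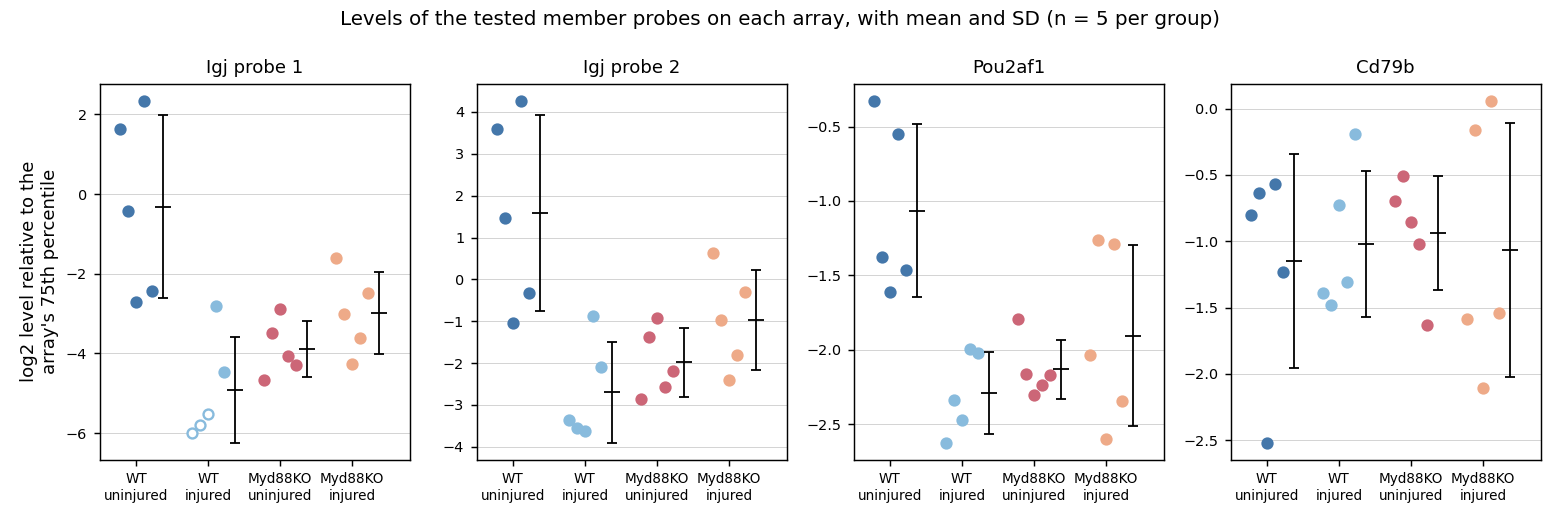
Log2 level relative to the array's 75th percentile (y axis) of the 4 tested member probes in the 4 groups (x axis), with 1 point per array, open where the probe was not well above background, and the mean and SD (n = 5) beside them. WT uninjured has the highest mean for both Igj probes and for Pou2af1, with replicates 1 and 4 on top, and the widest spread for both Igj probes, while Cd79b shows overlapping groups.

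Cd79b (chromosome 11, 106420507 to 106420566, minus strand), the signalling partner of surface immunoglobulin, was likewise above background on all 20 arrays but did not follow Igj. Its log2 levels were -0.80, -0.63, -2.52, -0.57 and -1.23 in WT uninjured and -1.39, -1.48, -0.73, -1.31 and -0.19 in WT injured. They were -0.69, -0.51, -0.85, -1.02 and -1.63 in Myd88KO uninjured and -1.59, -0.16, -2.11, 0.06 and -1.54 in Myd88KO injured. The groups overlapped in each comparison. Injury changed it by 0.13 in WT (95% interval -0.75 to 1.01) and by -0.13 in Myd88KO (-1.01 to 0.76), and Myd88KO differed from WT by 0.21 without injury (-0.67 to 1.09) and by -0.05 with it (-0.93 to 0.83). None of these passed the test (adjusted p from 0.879 to 0.999), and the intervals leave room for a change of up to about 1 on the log2 scale in either direction. In Myd88KO injured, replicates 2 and 4 stood above the other 3 arrays.

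In WT, injury thus lowered 2 of the 7 member genes, Igj and Pou2af1, and raised none. Of the 10 member probes, 4 (of Igj, Pou2af1 and Cd79b) passed the filter on low values and 3 of these were called lower. Over all tested probes, 5.16% were called in this comparison, 3.11% higher and 2.05% lower (992 higher and 418 lower under median scaling, against 811 and 535). The share of all tested probes whose WT injured arrays all lay below the WT uninjured ones was 4.93%, and 2 of the 4 member probes did, while 7.52% lay above and no member probe did.

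In Myd88KO, no member was called after injury, against 0.372% of all tested probes. Igj was 1.02 higher at probe 2 (SE 0.87, 95% interval -0.80 to 2.84, adjusted p = 0.558) and 0.89 higher at probe 1 (95% interval -0.88 to 2.66, adjusted p = 0.605). Pou2af1 was 0.23 higher (95% interval -0.35 to 0.80, adjusted p = 0.696). The arrays of both groups overlapped at all 4 probes (1.13% of tested probes were separate and higher, 2.37% separate and lower), and limma gave an unadjusted p under 0.05 for 0 of the 4, against 19.7% of all probes. The upper ends of the Igj intervals allow a rise of several-fold, and their lower ends allow a difference of -0.80 at probe 2 and -0.88 at probe 1. Without replicate 5 of Myd88KO injured the differences were 0.85 and 0.76 for Igj and 0.34 for Pou2af1. The difference between the Myd88KO and the WT response was 5.31 (SE 1.23) at Igj probe 2, 5.49 (SE 1.20) at probe 1 and 1.45 (SE 0.39) for Pou2af1. These had unadjusted p of 3.65e-04, 2.01e-04 and 0.00143, but adjusted p of 0.396, 0.354 and 0.396. In that comparison limma called 0% of all probes, and 10.2% had an unadjusted p under 0.05, so that a difference between the genotypes in the response of Igj or Pou2af1 was not established.

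The comparison of uninjured mice uses the same 5 WT uninjured arrays as the WT injury comparison, so that their high Igj levels enter both. The difference of Myd88KO from WT was -3.58 for Igj at probe 2 (SE 0.87, adjusted p = 0.0866) and -3.56 at probe 1 (SE 0.85, adjusted p = 0.0755). For Pou2af1 it was -1.07 (SE 0.28, adjusted p = 0.132). For Igj probe 1, at -4.67, -3.50, -2.88, -4.08 and -4.29 in Myd88KO uninjured, and for Pou2af1, all 5 Myd88KO arrays were below all 5 WT arrays, as 0.844% of tested probes were (1.59% were above). By limma no member passed the adjusted threshold, which 0.376% of tested probes did, and 3 of the 4 member probes had an unadjusted p under 0.05, against 5.55% of all. With arrays weighted by their quality both Igj probes passed (adjusted p = 0.00294 and 0.00338), with differences of -4.28 and -4.31. The spread differed as well as the mean, with an SD of 2.34 in WT and 0.82 in Myd88KO at probe 2, although limma assumes 1 spread for all groups.

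Among injured mice, no member differed between genotypes past the threshold in limma, which 0.38% of tested probes passed, and 1 of the 4 probes had an unadjusted p under 0.05, against 12.5% of all. The groups overlapped at all 4 (0.675% of tested probes were separate and higher, 1.34% separate and lower). Igj was 1.73 higher in Myd88KO at probe 2 (95% interval -0.09 to 3.55, adjusted p = 0.426) and 1.93 higher at probe 1 (95% interval 0.15 to 3.70, adjusted p = 0.349), and Pou2af1 was 0.38 higher (adjusted p = 0.605). The probe 1 levels in Myd88KO injured were -1.60, -3.02, -4.26, -3.61 and -2.47, all above background. Replicate 5, which stood apart, was the second highest of them, and without it the differences were 1.56 at probe 2 and 1.80 at probe 1.

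**Figure D2:**
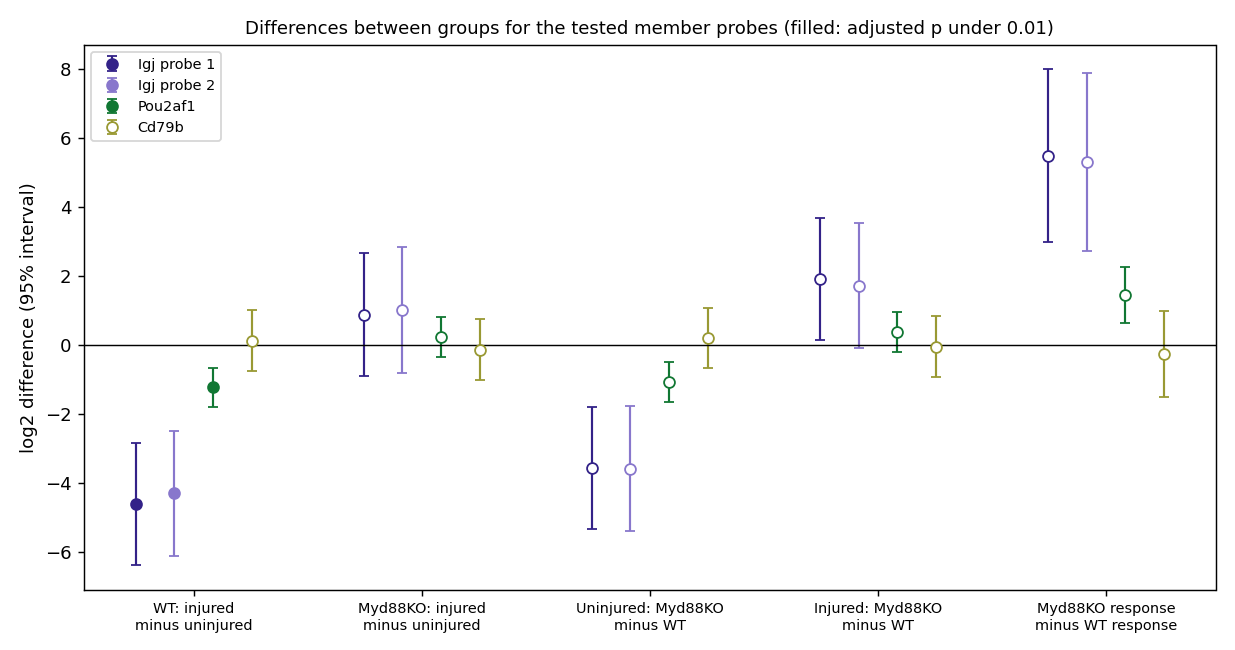
Log2 differences between groups (y axis) with 95% intervals for the 4 tested member probes in the 5 comparisons (x axis), filled where the adjusted p was under 0.01. The filled points are the falls of both Igj probes and Pou2af1 after injury in WT, and all Cd79b intervals include 0.

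The remaining members were near the floor of the array. Ms4a1 (CD20), the standard surface marker of mature B cells, had probe 1 at chromosome 19, 10931462 to 10931521, and probe 2 at 10931002 to 10931061, both on the minus strand. Probe 1 was above background on 3 of 20 arrays and probe 2 on 9, so that neither was tested. In Myd88KO injured, probe 2 read -5.54, -2.09, -5.76, -1.61 and -4.90, and probe 1 read -7.23, -3.64, -7.20, -3.25 and -6.25. At both probes replicates 2 and 4 were the highest of all 20 arrays, and in this group they alone were above background. In the other groups probe 2 ran from -6.73 to -3.38 (median -4.45) in WT uninjured, from -6.37 to -2.87 (median -5.28) in Myd88KO uninjured and from -6.92 to -3.07 (median -6.07) in WT injured. The groups overlapped in every comparison at both probes.

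Cd79a, Cr2 and Blk were also seldom above background. Cd79a (chromosome 7, 21688822 to 21689079), which pairs with Cd79b, was above background on 2 arrays only, replicate 5 of Myd88KO uninjured at -4.83 and replicate 2 of Myd88KO injured at -5.08. Cr2 was above background on no array at probe 1 (chromosome 1, 194695473 to 194695532) and on 6 at probe 2 (194717651 to 194717710), where its log2 levels ran from -5.72 to -3.99. Blk (chromosome 14, 58242375 to 58243512), a Src family kinase of B cells, was above background on 4 arrays: replicate 1 of WT injured at -3.89, replicate 5 of Myd88KO uninjured at -4.68, and replicates 2 and 4 of Myd88KO injured at -4.97 and -5.12. For these genes the groups overlapped in every comparison, and no fold is given. Where a probe was above background on no array of 1 group only, the mean of the other group lay under the bound that this sets. With no filter on low values, all 6 dim probes were tested and none was called (smallest adjusted p = 0.411).

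**Figure D3:**
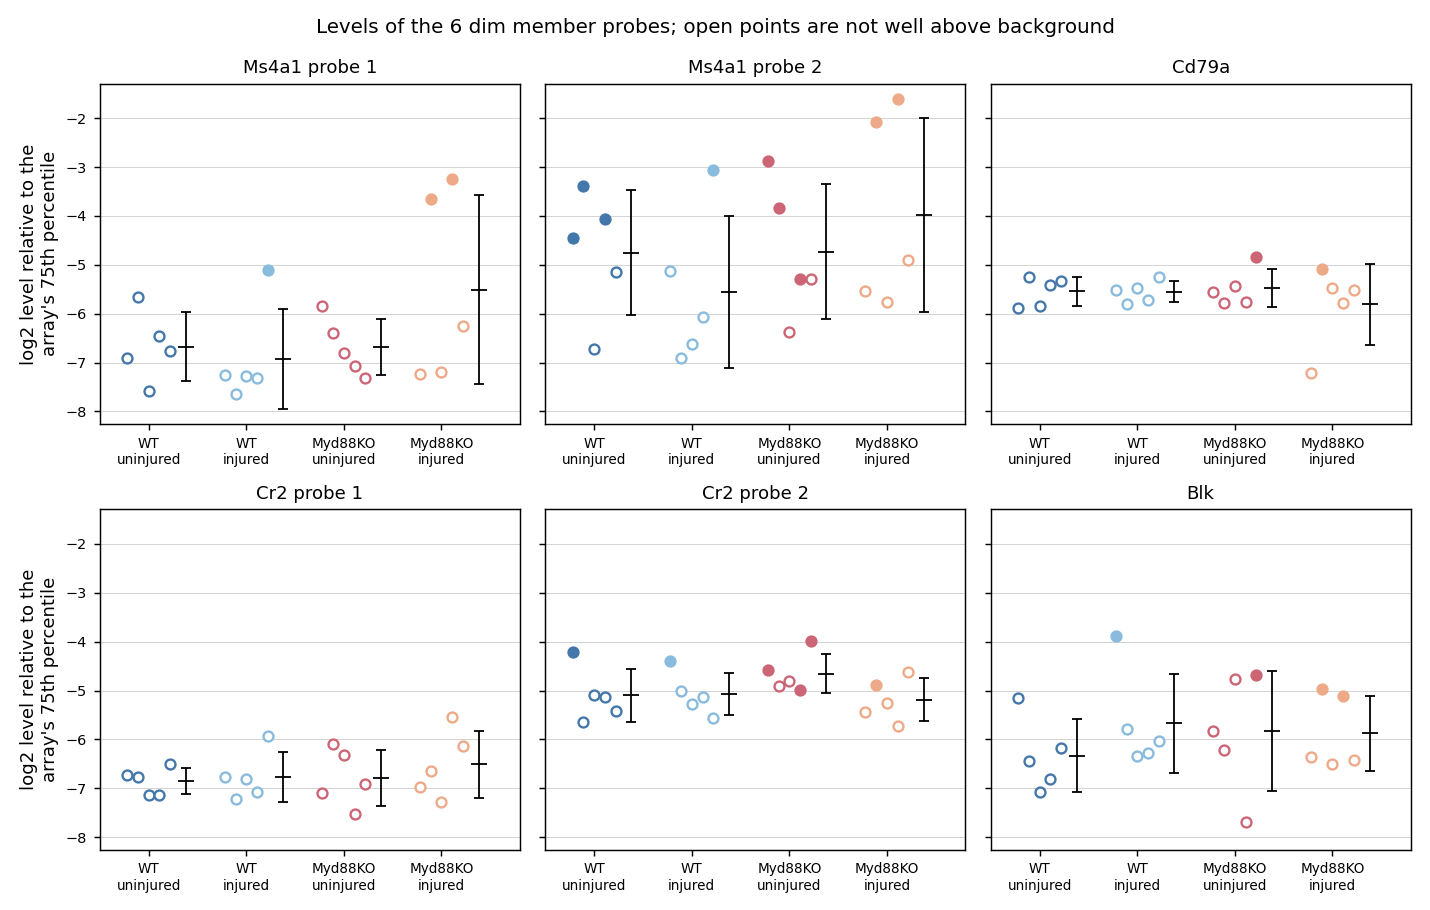
Log2 level relative to the array's 75th percentile (y axis) of the 6 member probes that were not tested, by group (x axis), with 1 point per array, open where the probe was not well above background, and the mean and SD (n = 5). Most points are open, and replicates 2 and 4 of Myd88KO injured are the highest arrays at both Ms4a1 probes.

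The genes most like Igj over the 20 arrays were mostly immunoglobulin chains. Likeness was taken as Pearson's r with Igj probe 2, ranked over the brightest tested probe of each gene name, with the members left out. It is a description, since the 20 arrays share group differences and slides. Of the 10 ranked probes with the highest r, 8 carry an immunoglobulin description. The first was a probe of Igh-VJ558, the J558 family of heavy chain variable segments, at r = 0.988, followed by a kappa light chain cDNA at 0.964. The remaining 8 lay between 0.867 and 0.945. Among members, Pou2af1 had r = 0.802 and Cd79b r = 0.146. With each group's mean subtracted, Igh-VJ558 stayed at 0.977 and 7 of the first 10 were immunoglobulin sequences, while Mzb1, a chaperone of antibody assembly in plasma cells and marginal zone B cells, came sixth at 0.850. Pou2af1 then had r = 0.530. Within groups, arrays with high Igj were mostly also those with high readings of Igh-VJ558 and of the kappa chain cDNA (r = 0.928). The WT uninjured arrays, which had the widest Igj spread, weigh most in these r. In Myd88KO injured, replicate 4 was at -1.80 for Igj probe 2, while the kappa chain cDNA read 0.009 there, near its highest value in that group (0.20). The order of Igh-4 in that group, given below, differed from that of Igj as well.

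A different set followed the surface members. For the mean of Cd79a, Cd79b and Ms4a1, of which Cd79a and Ms4a1 are near the floor on most arrays, the first was a probe described as the constant region of the immunoglobulin delta chain (r = 0.909), the class carried by naive B cells. Cd200 and Bank1, a scaffold of B cell receptor signalling, were at 0.792 and 0.735. With group means subtracted, the delta chain probe stayed first at 0.911, ahead of Mest (0.883) and Cd93 (0.856). Igj had r = 0.148 with this mean. The IgG heavy chain probe Igh-4 was at -1.65, -1.34, -2.56, -0.72 and -2.004 in Myd88KO injured, highest in replicate 4 and next in replicate 2, and its difference from WT injured was 0.82 (adjusted p = 0.206).

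Of 19 immunoglobulin chain genes named on the array, 5 passed the filter, with 12 probes, and 1 was called lower after injury in WT, at 3 of its 4 probes. This was Igh-VJ558, with differences of -4.09, -3.96 and -3.95 on the log2 scale (SE 0.85 each, adjusted p = 0.00425, 0.00515 and 0.00520). The probe most like Igj read 6.86, 4.80, 2.88, 7.82 and 3.39 in WT uninjured and 0.47, -0.30, 0.43, 3.29 and 2.11 in WT injured, and replicate 4 of WT injured overlapped the uninjured group. At the fourth Igh-VJ558 probe the difference was -0.08 (adjusted p = 0.830). The 4 probes of Igl-V1, a lambda light chain variable gene, differed by -4.24 to -2.67 in WT injured (adjusted p from 0.0145 to 0.0698). At one of them replicate 1 of WT uninjured read 6.15 while replicates 2 to 5 read -1.29, -3.72, -1.14 and 0.74, so that this array, second for Igj, was alone at the top for the lambda chain. Igh-6, the IgM heavy chain, differed by -0.88 and -1.07 at its probes (adjusted p = 0.0785 and 0.139). The median over the 12 probes was -3.11, against -0.02 over all tested probes. Igh-VJ558 and Igl-V1 supplied 4 of these probes each, so that this median does not show a fall of every chain gene. Variable genes are a large family of near-identical copies, so that 1 probe may read several of them.

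Summed over the 19 chains, the level ran from 11.3 to 235 (median 39.5) in WT uninjured, with replicates 1 and 4 at 194 and 235. The sum adds intensities and not log2 levels, so that the brightest chains, such as Igh-VJ558, weigh most in it. It does not show a change across the family, and 3 of the 19 chains were above background on no array. The sum ran from 3.61 to 13.5 (median 4.64) in WT injured, from 6.19 to 12.5 (median 11.8) in Myd88KO uninjured and from 6.16 to 29.4 (median 10.4) in Myd88KO injured. No chain was called after injury in Myd88KO, between uninjured genotypes or between injured ones. The 4 probes of Igl-V1 were 1.095 to 3.24 higher in Myd88KO injured than in WT injured (adjusted p from 0.268 to 0.639). The difference between injury responses was up to 6.53 for Igl-V1 (unadjusted p = 4.07e-04) and up to 4.68 for Igh-VJ558 (unadjusted p = 9.72e-04), each with an adjusted p of 0.396.

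**Figure D4:**
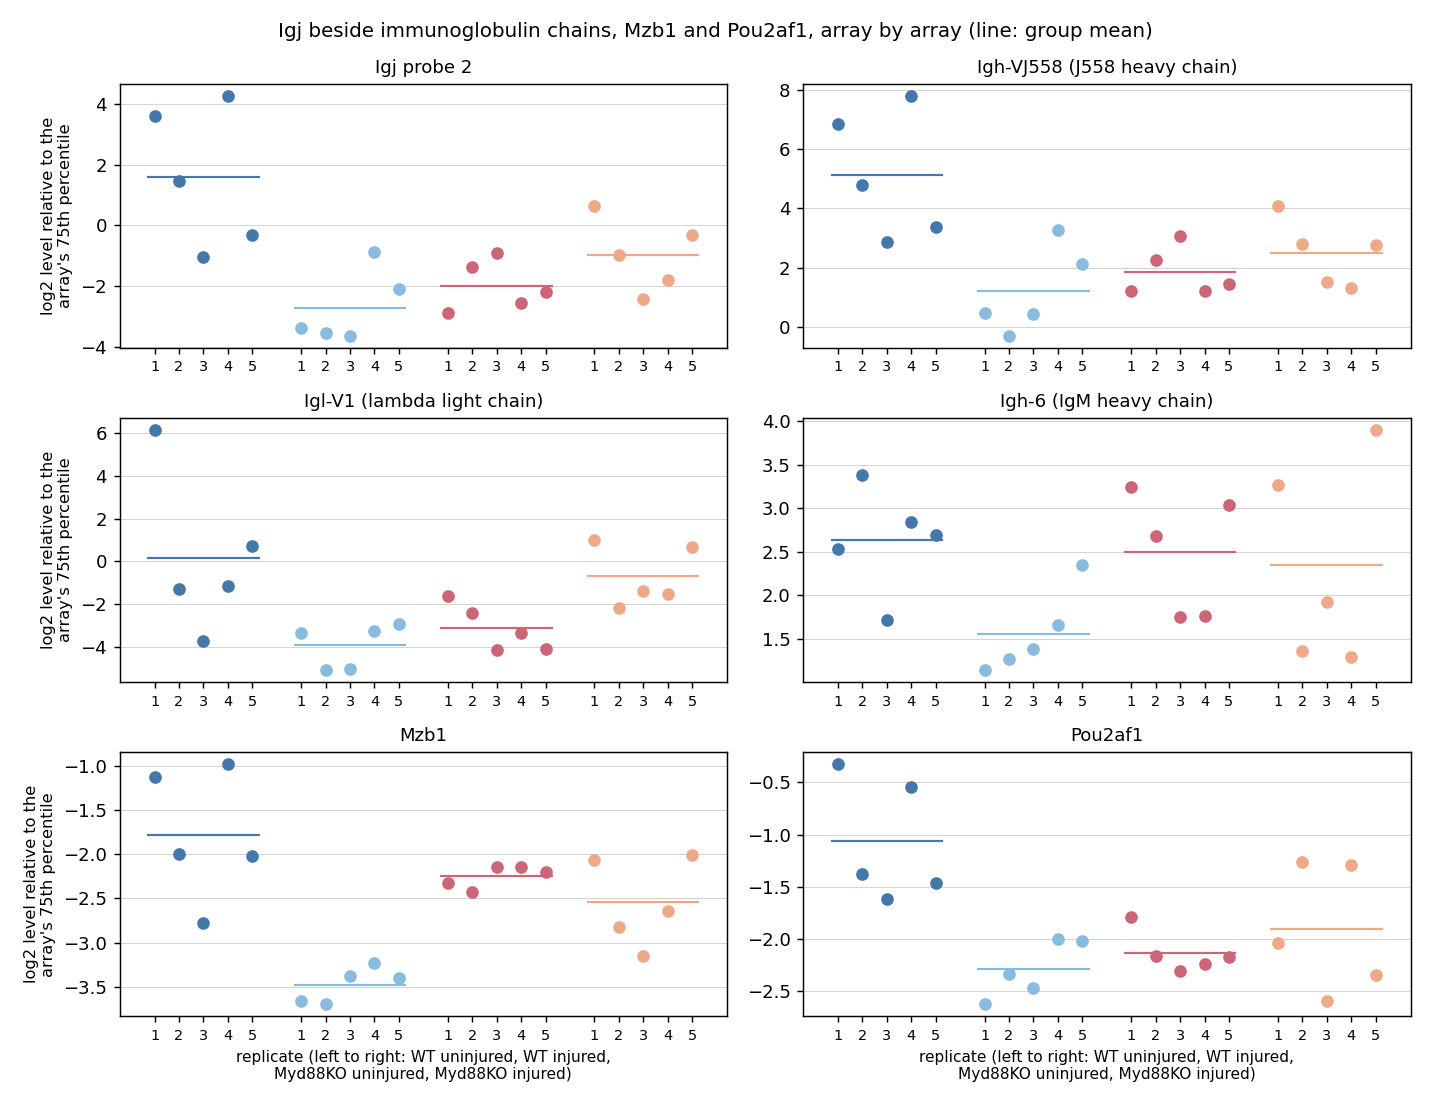
Log2 level relative to the array's 75th percentile (y axis) of Igj probe 2, 1 probe each of Igh-VJ558, Igl-V1 and Igh-6, Mzb1 and Pou2af1 on every array (x axis, replicates 1 to 5 within the 4 groups), with a line at each group mean. Replicates 1 and 4 of WT uninjured are at the top for Igj, Igh-VJ558, Mzb1 and Pou2af1, while Igl-V1 has replicate 1 alone at 6.15 and Igh-6 has a narrower range.

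Of 12 plasma cell genes, all of which were tested, 1 was lower and none was higher after injury in WT. That is 1 of 17 probes, against 2.05% of all tested probes called lower in this comparison. Mzb1 changed by -1.69 (SE 0.28, adjusted p = 9.24e-04), from -1.13, -1.997, -2.78, -0.98 and -2.02 in WT uninjured to -3.66, -3.70, -3.38, -3.24 and -3.40 in WT injured. The groups did not overlap. The regulators of the plasma cell programme did not pass: Xbp1, which expands the secretory machinery, differed by -1.56 (adjusted p = 0.350), Irf4 by -0.61 (0.432) and Prdm1 by 0.05 (0.962). Single arrays weigh on these values: Xbp1 read 2.18, -5.52, 2.02, 2.19 and 1.73 in WT injured, against 1.78 to 2.52 in WT uninjured. Prdm1 read 0.57 in replicate 3 of WT uninjured and -3.13 to -2.07 in the other 4 arrays. Sdc1, which is also an epithelial gene, differed by 0.17 (0.729). The survival receptor Tnfrsf17 differed by -0.62 (0.490). The median of the list was 0.17, against -0.02 over all tested probes. In Myd88KO injured Mzb1 was at -2.06, -2.83, -3.16, -2.64 and -2.01, all above the injured WT arrays, a difference of 0.94 (adjusted p = 0.153). No gene of the list was called in Myd88KO after injury or in either genotype comparison, where the smallest p belonged to Derl3 after injury (-0.94, adjusted p = 0.186), Ell2 between uninjured genotypes (-0.60, 0.190) and Mzb1 between injured ones.

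The surface list held 17 B cell genes, of which 12 were tested, and after injury in WT 3 rose and 1 fell. The fall was that of Vpreb3, a relative of the surrogate light chain of B cell precursors, by 2.88 and 3.14 at its probes (adjusted p = 2.08e-04 and 2.69e-04), the only gene of the B cell lists also called in Myd88KO, where it fell by 2.03 at 1 probe (SE 0.38, adjusted p = 0.00911) and differed by -2.16 at the other (adjusted p = 0.0128). The Myd88KO call was lost in limma under median scaling (adjusted p = 0.0138) and quantile normalization (0.0106). It was kept with normexp background correction (0.00690). The rises in WT were those of Cd180 by 2.01, Cd72 by 1.03 and 0.92 and Ly86 by 1.41 (adjusted p from 0.00539 to 0.00932). With normexp background correction the Cd180 rise was 0.67 and was not called in limma (adjusted p = 0.0197). Cd180 and Ly86 belong to Toll-like receptor type complexes that macrophages carry as well. The median was 1.03. Of 14 genes of B cell receptor signalling, all tested, 7 rose and none fell: Btk by 1.94, Vav1 by 1.97 and 1.93, Syk by 1.85, Inpp5d by 1.82, Ptpn6 by 1.102, Plcg2 by 0.95 and Lyn by 0.72 (SE 0.16 to 0.45, adjusted p from 9.24e-04 to 0.00982). These 7 are active in macrophages and neutrophils too. Beside them, 5 of 9 myeloid genes tested rose in the same comparison, among them Cd68 by 3.25, Itgam by 2.65 and Adgre1 by 2.01, and none fell. The Itgam rise was 1.49 with normexp background correction and was not called in limma (adjusted p = 0.0106). The part of myeloid cells in the rises of the surface and signalling lists was not tested. In Myd88KO no gene of receptor signalling or of the myeloid list was called after injury, Btk being 1.08 higher (adjusted p = 0.151).

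Among 13 B cell transcription factors, 9 were tested and 1 rose (1 of 13 tested probes, against 3.11% of all tested probes called higher). This was Irf8, by 0.98 (adjusted p = 0.00236), a factor of macrophages and dendritic cells as well as of B cells. Pax5, which fixes B cell identity, was above background on no array. Of 15 genes that attract or sustain B cells or carry IgA, 12 were tested. Ccl20, an epithelial ligand for Ccr6, fell by 3.57 (SE 0.58, adjusted p = 9.01e-04) and Cxcr4, the receptor for Cxcl12, rose by 1.97 and 2.21 (adjusted p = 8.22e-04 and 7.23e-04). Pigr, the receptor that carries J chain bound IgA across epithelium, differed by -0.72 (adjusted p = 0.0833), Cxcl13 by -1.36 (0.184) and the survival factor Tnfsf13b by 0.98 and -0.07 at its probes (0.0155 and 0.891). In Myd88KO, Ccl20 differed by -2.37 (adjusted p = 0.0319) and Cxcr4 by 1.11 and 0.89 (0.0599 and 0.163), and in the genotype comparisons no gene of these lists was called.

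Markers of other tissues that a dissected trachea can carry were read on the same arrays. Of 8 lymph node stroma and thymus genes, 2 (Chst4 and Ccl19) were above background on all 20 arrays and Rag2 on 0, and the summed level in WT uninjured was 12.7, 13.5, 7.07, 6.48 and 13.0 for replicates 1 to 5. For Igj, replicate 4 was the highest and replicate 3 the lowest of these arrays. The summed level of 13 T cell genes was 2.10, 2.53, 4.07, 2.05 and 3.61 on these arrays. Lymph node and T cell sums were lowest in replicate 4, while replicate 1, the second highest for Igj, had sums of 12.7 and 2.10. The thyroid sum was 240, 88.7, 124, 332 and 291, highest in replicate 4. The adipocyte sum was 515, 404, 278, 490 and 530, and the submucosal gland sum 987, 897, 603, 737 and 905, both lowest in replicate 3. Of 12 T cell genes tested, 1 fell after injury in WT (1 of 14 probes, against 2.05% of all tested probes called lower). This was Cd247, by 1.20 (adjusted p = 0.00531), and in Myd88KO it changed by -1.69 (adjusted p = 0.00440). With normexp background correction its differences were -0.66 in WT and -0.95 in Myd88KO, not called in limma (adjusted p = 0.0331 and 0.0124). In Myd88KO uninjured the summed level was 442 to 775 for adipocyte, 79.5 to 440 for thyroid and 707 to 1135 for submucosal gland genes. The airway epithelium sum was 1064 to 1621 in WT uninjured and 649 to 845 in WT injured. Scgb1a1 (club cell), which differed by -7.93 (adjusted p = 1.09e-05), is not in that sum, for want of a value on every array. In the gland list Bpifa1 fell by 2.25 (adjusted p = 3.54e-04), at a probe likewise left out of the gland sum, which held 6 of 7 genes. Both genes were also called lower after injury in Myd88KO, with differences of -6.25 for Scgb1a1 and -2.37 for Bpifa1. The part of these tissues in the Igj and Pou2af1 differences was not tested. No gene of the cartilage, adipocyte, thyroid, skeletal muscle, gamma delta T cell, plasmacytoid dendritic cell or lymph node lists was called in any comparison.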

How the data were processed

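RNA from whole tracheas was labelled with Cy3 and hybridized to Agilent mouse arrays, 1 mouse per array and 5 per group. The deposited scanner files hold spot intensity values that the authors produced with Agilent Feature Extraction 9.5.1.1, already background-subtracted. Here log2 of the deposited processed intensity minus each array's 75th percentile was used. The 1960 values with an outlier mark were left out, and spots of a probe were averaged. Probes well above background on at least 10 of 20 arrays were fitted with limma 3.58.1 (R 4.3.3, statmod 1.5.0) over all 4 groups, with Benjamini-Hochberg adjustment over 26063 probes per comparison and a threshold of 0.01, following the filter and threshold of the methods. The number of arrays limits the precision. The procedure was tested on simulated data.

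The file headers show that arrays with the same replicate number share a slide, which pairs them as a batch. Deviations of same-numbered arrays correlated with a median r of 0.24 over 30 pairs (-0.26 to 0.48), and of differently numbered arrays with -0.08. Alternatives covered scaling, background, filter, block, scan day, array weights, a one-way test on the 2 groups compared and leaving out each array.

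The members and lists were chosen with earlier results of these data known. Named were all members, Myd88, called list genes or, where there were none, those of smallest p, and genes among the 10 most like Igj or the surface members; further list genes are named for their role and were chosen after their values were seen. Old array names were updated through a RefSeq gene table (22951 probes matched). Some genes that this rule names are not reported here.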

Additional observations from a re-analysis of the deposited data

Results flagged for a closer look

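In 3 of 40 sets of 5 arrays (10 probes in 4 groups), 1 array lay farther from its group than Dixon's critical value of 0.71 allows, and chance gives about 1 in 20 such sets. Ms4a1 probe 1 read -5.11 in replicate 5 of WT injured, the highest of its group and the only array of it above background. Blk read -3.89 in replicate 1 of WT injured, also the only array of its group above background. Pou2af1 read -1.79 in replicate 1 of Myd88KO uninjured, above the other 4, and still below all 5 WT uninjured arrays.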

How the results depend on the processing

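The count of 2 members called after injury in WT was 0 within scan day 1, 0 within scan day 2 and 0 with the 2 groups fitted alone. It was also 0 by a one-way test on those 2 groups after adjustment. The methods describe a one-way ANOVA over all WT and knockout samples, which was not run. It was 1 under median scaling and 1 with no filter, where Pou2af1 was lost (adjusted p = 0.0141 and 0.0108), and 1 to 2 when single arrays were left out. The count of 0 between uninjured genotypes was 1 with array weights (Igj) and 1 by a one-way test on the 2 groups before adjustment (Pou2af1). All other counts of members stayed at 0. Igj and Pou2af1 were lower in WT injured under every alternative that gave a value. The cause of these changes was not tested.

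Directions turned only for differences that were not called. Within scan day 1, the injury difference in Myd88KO was -0.15 for Igj probe 1, -0.11 for Igj probe 2 and 0.057 for Cd79b, and within scan day 2 it was -0.21 for Pou2af1. Cd79b differed between genotypes by -0.15 without injury within scan day 2 and by 0.44 with injury within scan day 1. With array weights Cd79b gave -0.014 for injury in WT, 0.069 for injury in Myd88KO, 0.12 between injured genotypes and 0.083 for the difference between responses. Leaving out single arrays, Cd79b ranged from -0.21 to 0.28 for injury in WT, -0.41 to 0.13 for injury in Myd88KO, -0.13 to 0.38 and -0.33 to 0.21 for genotype without and with injury, and -0.54 to 0.084 for the difference between responses. Normexp background correction moved the mean level over arrays of the dim probes, to -3.26 for Blk, -3.20 for Cd79a, -3.54 and -3.18 for Cr2 probes 1 and 2, and -3.30 and -2.82 for Ms4a1 probes 1 and 2, so that signal over background limits what can be said of these genes.

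With the replicate number, which is the slide, as a block, the WT injury difference had an adjusted p of 0.00338 and 0.00562 for Igj probes 1 and 2 and 0.00512 for Pou2af1, and the block changed no other call of a member. Of 35 called probe results of the gene lists, 34 stayed called under median scaling, 32 under quantile normalization and 30 with normexp background correction. All 35 kept their direction. Lyn was lost under quantile normalization (limma adjusted p = 0.0109) and with normexp (0.0142).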
